A study of Sus scrofa with 8 samples.

Results

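The genes described here are the complement components and regulators expressed in the liver of pigs with dietary nonalcoholic steatohepatitis (NASH). They were chosen by symbol, from a list of 33 complement genes of the classical, lectin, alternative and terminal pathways, their soluble and membrane-bound regulators and their receptors. That list was drawn up with earlier results of these data known. All 33 symbols were found in the expression table, in 34 of its 20430 gene rows, because C4BPA stands there as 2 separate genes. All 34 rows exceeded the minimum mean level of 0.1 FPKM (a fragment count divided by gene length and by library size) used for testing, as did 14780 rows of the table in all.

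The squalene group received the steatotic diet with 0.5% squalene and the control group received the steatotic diet alone. Squalene is the isoprenoid precursor of cholesterol and a minor component of virgin olive oil. All 24 animals were male Large White x Landrace pigs whose age the sources used here do not state, and all had eaten the steatotic diet, a fat-, sugar- and cholesterol-loaded feed short of the methyl donors choline and methionine, before squalene was added for one of the groups. There was no group on a normal diet, so every value below is from steatotic liver. Equal amounts of liver RNA from 3 pigs were combined per library, which gave 4 squalene pools and 4 control pools. A pool averages its 3 animals, and the level in a single pig is not seen.

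Complement is a chain of plasma proteins that mark microbes and damaged cells for removal. C1q, with its proteases C1r and C1s, starts the classical pathway on antibody or on exposed ligands, and mannose-binding lectin with its MASP proteases starts the lectin pathway on sugars. Both cut C4 and C2 to form an enzyme that splits C3, the central component, while the alternative pathway amplifies that step with factor B, factor D and properdin. Cleavage of C5 then lets C6, C7, C8 and C9 assemble a pore in the target membrane. The hepatocyte secretes most of these proteins, and several of them belong to the acute phase response, whereas C1q and properdin are made chiefly by macrophages and other myeloid cells.

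Estimated depth was similar between the diets, at a mean of 18.4 M fragments for squalene pools and 18.6 M for control pools. These are estimates, fitted to the authors' counts added over each diet, and no depth of a single pool is given. Interferon-stimulated genes stood high in squalene pool 1, whose median deviation from the mean of the 8 pools was 1.22 on the log2 scale over 31 of these genes, and all 31 had a fitted value above 0 on squalene (median 0.36). They were also raised in control pool 1, with a mean log2 level of 5.82, against 5.03 to 5.21 in the other control pools. That level was 6.88 in squalene pool 1 and 5.14 to 5.37 in the other squalene pools. Of 11 gene rows of hepatocyte markers, 7 had a lower and 4 a higher fitted level on squalene. Their summed level was 57658 to 81874 FPKM in squalene pools and 53387 to 82234 FPKM in control pools, so that hepatocyte transcripts were abundant in every pool. The largest part of that sum was ALB, the gene of serum albumin. It had 27953 to 49354 FPKM in squalene pools and 24083 to 49218 FPKM in control pools, with a fitted log2 fold change of 0.35. Macrophage markers summed to 796 to 923 FPKM in squalene pools and 796 to 945 FPKM in control pools, and 9 of 12 had a fitted value below 0. Among the other cell types, fitted values were higher on squalene for 7 of 9 stellate cell and fibroblast markers (median 0.30 on the log2 scale) and 5 of 6 cholangiocyte markers (0.33), and lower for 6 of 8 endothelial (-0.14), 6 of 7 neutrophil (-0.19), 7 of 10 T and NK cell (-0.06) and 4 of 5 B and plasma cell markers (-0.16). Their summed levels overlapped between the diets: 116 to 241 FPKM in squalene pools and 117 to 179.7 FPKM in control pools for the stellate list, 159.5 to 257 FPKM on squalene and 204 to 264 FPKM in controls for the cholangiocyte list, 139 to 173 FPKM on squalene and 163 to 182 FPKM in controls for the endothelial list, and 132 to 189.7 FPKM on squalene and 149 to 197 FPKM in controls for the neutrophil list. For T and NK cells they were 45.7 to 73.6 FPKM in squalene pools and 58.4 to 73.6 FPKM in control pools, and for B and plasma cells 15.7 to 24.6 FPKM on squalene and 17.5 to 26.5 FPKM in controls. None of these markers was called, STAB1 alone was lower in every squalene pool than in every control pool, and their part in the complement values was not tested. Most of the cholangiocyte sum came from SPP1, at 142 to 251 FPKM in squalene pools and 196 to 255 FPKM in control pools. Its fitted log2 fold change was -0.33, so that sum and the median of the list describe different genes. Most of the neutrophil sum came from FCGR3A, at 109 to 149 FPKM in squalene pools and 124 to 157 FPKM in control pools. In whole liver, fewer cells of a type and less RNA per cell cannot be told apart.

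Complement was an abundant part of this transcriptome. FPKM corrects for gene length, so levels can be set side by side between genes. VTN, which encodes vitronectin, a soluble inhibitor of the membrane pore, was the most abundant member, with a level that ranked 25 of 20430 rows. It was followed by C3 at rank 39, CLU (clusterin) at rank 52, SERPING1 (the C1 inhibitor) at rank 62, C1R at rank 79 and C1S at rank 81. At the other end stood CD55, the membrane factor that dissociates C3 convertases, at 0.530 to 1.68 FPKM over the 8 pools. There were 21 members that averaged 100 FPKM or more.

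Several members lie beside each other in the pig genome (Sscrofa11.1). C1QA, C1QC and C1QB follow each other on chromosome 6 with gaps of 3377 and 4215 bases. C8B and C8A are 11820 bases apart on the same chromosome, C1R and C1S are 15159 bases apart on chromosome 5, and C7 and C6 are 120938 bases apart on chromosome 16. C4BPB, the C4BPA genes and CD55 form a row on chromosome 9. C2 and CFB sit on the plus strand of chromosome 7, and only 34 bases, chr7:24034043-24034076, separate the annotated end of C2 from the start of CFB. The sources used here do not state how reads at that junction were assigned, and the levels of C2 and CFB are uncertain to that extent. The same holds for the C4BPA genes, whose shared name leaves reads of similar sequence uncertain.

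The sequence before the transcription start is shown for the 8 members whose pools separated by diet on the deposited FPKM. For CFB it is limited to the short stretch that joins it to C2. Each of the other 7 windows runs from 250 bases before to 30 bases after the annotated start, read from the RefSeq genome on the strand of the gene. Capitals mark a match to a STAT-type motif (TTCNNNGAA) or a C/EBP-type motif (TTGCNNAA), searched on both strands.
C1R (chr5:63643847-63644126, plus strand): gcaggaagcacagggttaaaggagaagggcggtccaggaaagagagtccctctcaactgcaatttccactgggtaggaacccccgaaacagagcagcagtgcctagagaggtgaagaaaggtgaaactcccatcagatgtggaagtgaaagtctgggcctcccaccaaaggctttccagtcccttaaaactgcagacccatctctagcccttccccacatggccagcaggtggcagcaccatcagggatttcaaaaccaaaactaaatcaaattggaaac
C1S (chr5:63681437-63681716, minus strand): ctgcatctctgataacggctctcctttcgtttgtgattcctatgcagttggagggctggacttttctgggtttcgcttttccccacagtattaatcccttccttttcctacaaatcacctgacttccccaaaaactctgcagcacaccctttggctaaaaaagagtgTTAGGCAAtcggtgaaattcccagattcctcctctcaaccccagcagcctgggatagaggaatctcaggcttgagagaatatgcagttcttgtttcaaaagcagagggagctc
C2 (chr7:24020340-24020619, plus strand): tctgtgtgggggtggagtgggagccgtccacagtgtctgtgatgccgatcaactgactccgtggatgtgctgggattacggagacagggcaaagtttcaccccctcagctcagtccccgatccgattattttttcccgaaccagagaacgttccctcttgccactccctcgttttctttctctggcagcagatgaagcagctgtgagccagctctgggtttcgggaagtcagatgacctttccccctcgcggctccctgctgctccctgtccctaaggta
C3 (chr2:72431220-72431499, plus strand): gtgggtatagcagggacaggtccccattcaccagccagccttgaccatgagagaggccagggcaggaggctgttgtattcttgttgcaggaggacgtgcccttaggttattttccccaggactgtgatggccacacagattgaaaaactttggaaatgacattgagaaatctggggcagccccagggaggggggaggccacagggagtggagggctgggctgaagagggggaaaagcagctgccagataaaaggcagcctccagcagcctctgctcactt
SERPING1 (chr2:13338797-13339076, minus strand): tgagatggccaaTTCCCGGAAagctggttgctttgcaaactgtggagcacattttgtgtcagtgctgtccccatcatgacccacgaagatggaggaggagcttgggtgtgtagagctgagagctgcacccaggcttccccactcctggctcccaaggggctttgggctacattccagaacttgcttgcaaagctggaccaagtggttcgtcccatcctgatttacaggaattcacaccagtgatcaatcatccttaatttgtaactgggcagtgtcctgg
C6 (chr16:26089489-26089768, minus strand): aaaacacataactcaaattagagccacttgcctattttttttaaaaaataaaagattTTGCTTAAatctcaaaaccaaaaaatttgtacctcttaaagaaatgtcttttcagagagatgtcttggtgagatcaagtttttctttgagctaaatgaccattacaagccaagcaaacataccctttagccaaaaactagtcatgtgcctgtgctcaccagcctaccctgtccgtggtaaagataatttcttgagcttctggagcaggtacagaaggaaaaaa
C8A (chr6:155530444-155530723, minus strand): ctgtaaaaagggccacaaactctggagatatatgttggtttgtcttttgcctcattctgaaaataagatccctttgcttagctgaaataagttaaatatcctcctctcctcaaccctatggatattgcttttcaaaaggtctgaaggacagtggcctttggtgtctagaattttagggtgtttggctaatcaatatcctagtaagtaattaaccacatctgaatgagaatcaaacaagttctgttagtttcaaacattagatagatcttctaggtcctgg
C2 to CFB (chr7:24034043-24034106, plus strand): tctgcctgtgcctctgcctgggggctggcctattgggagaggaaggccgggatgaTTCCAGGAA

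The CFB stretch holds the 34 bases between the genes and the first 30 bases of CFB, and its last 9 bases are a STAT-type match that begins 22 bases into the gene. The SERPING1 window carries a STAT-type match 238 bases before the start, C6 and C1S each carry a C/EBP-type match, and the windows of C1R, C2, C3 and C8A hold neither. Over all 34 members, 6 windows (17.6%) held the STAT-type motif, against 6.35% of the 14643 windows that could be read for the genes tested. The C/EBP-type motif was in 8 member windows (23.5%), against 8.90% of all windows. An IRF-type motif (GAAANNGAA) was in 4 member windows (11.8%), against 6.83%, and the NF-kB motif was in 5 (14.7%), against 14.9%. Among the 8 members whose pools separated, 2 held the STAT-type, 2 the C/EBP-type, 1 the IRF-type and 1 the NF-kB motif. Matches of different motifs may overlap, and a match is a run of letters and not a demonstration of binding.

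Complement transcripts were mostly lower in livers of squalene-fed pigs, by modest amounts, and no single gene passed the test across all genes. Of the 34 members, 29 had a fitted log2 fold change below 0, against 52.9% of all genes tested, and the median over members was -0.21 against -0.01 for all genes and -0.03 for genes averaging 100 FPKM or more. In 8 members every squalene pool lay below every control pool, against 1.54% of all genes. These were C1R, C1S and C2 of the classical pathway, C3 and CFB, the terminal components C6 and C8A, and the C1 inhibitor gene SERPING1. In no member did every squalene pool lie above every control pool. All 8 were among the 21 members averaging 100 FPKM or more, a level at which the background was 2.81%. The list was drawn up with earlier results of these data known, and its members were measured in the same pools. The shares set beside all genes are therefore a description and not a test.

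The limma test with Benjamini-Hochberg adjustment over 14780 genes called 0 members, with a smallest adjusted p of 0.953 for CFB, and 0% of all genes (0 genes), with a smallest adjusted p of 0.174. At an unadjusted p under 0.05 there were 10 members, all lower on squalene, against 2.28% of all genes in that direction. The count of separated members depended on how the pools were scaled. With FPKM as deposited it was 8, beside 228 of all 14780 genes. It was 6 (199 of all genes) after rescaling to TPM, 5 (249 of all genes) after quantile normalization and 3 (199 of all genes) after scaling to a common median. After scaling to the hepatocyte markers, a choice made after the data were seen, it was 1, CFB (104 of all genes). C3 and SERPING1 did not separate on TPM, after quantile normalization or on the hepatocyte markers. With a common median C3 separated and SERPING1 did not. The count also depended on the pools used. Without squalene pool 3 the count was 13, beside 478 of all genes.

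**Figure D1:**
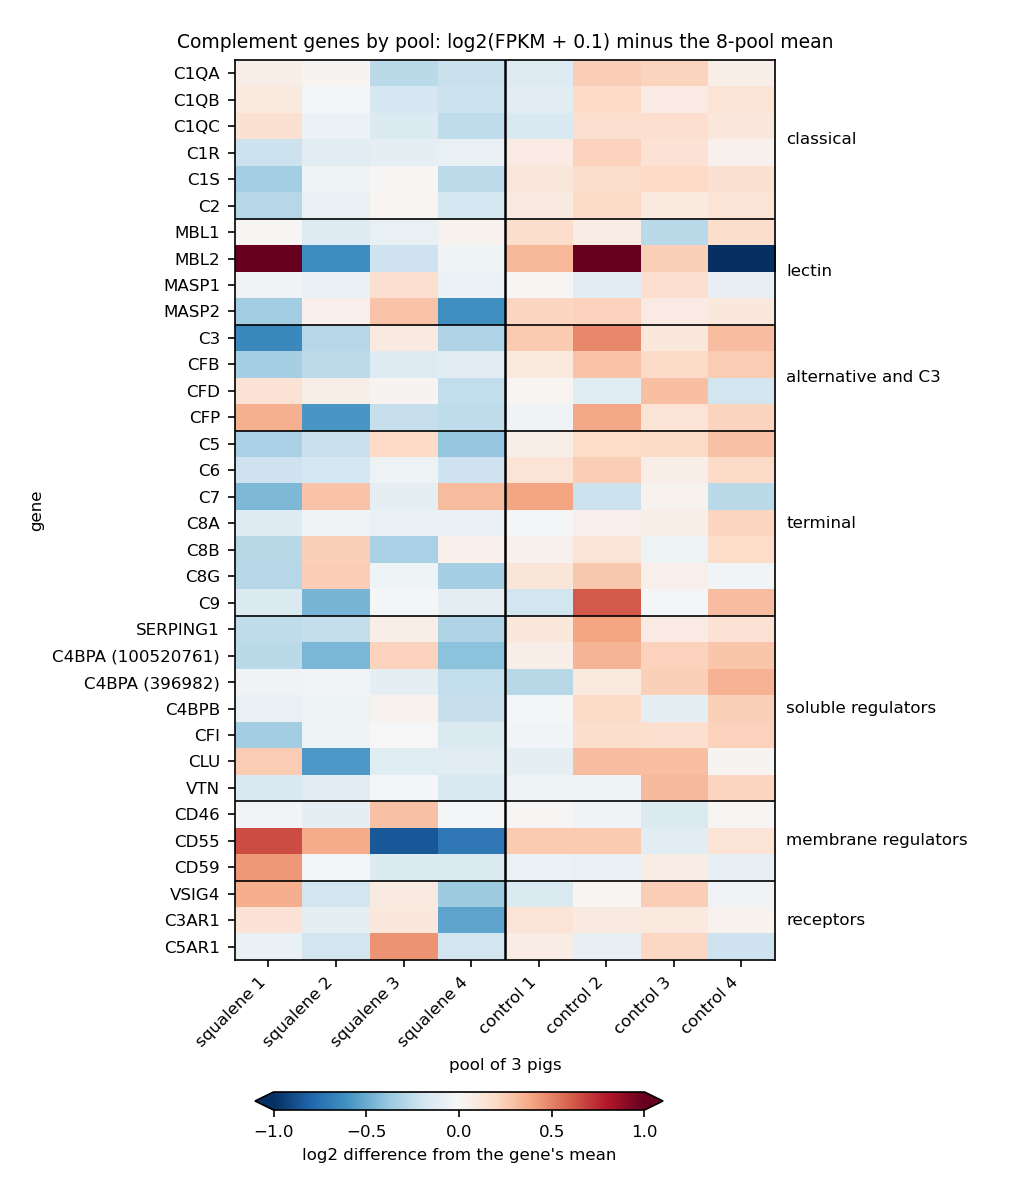
Level of each complement gene (rows, grouped by role) in each pool (columns), as log2(FPKM + 0.1) minus the mean of the 8 pools, with the color scale ending at -1 and 1. In the rows from C1R to C2 and from C3 to CFB the squalene pools are mainly blue and the control pools red, while MBL2, which spanned 46.6 to 338 FPKM, runs past the scale in both diets.

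The pattern was not spread evenly over the pools. Squalene pools 1 and 4 each held the lowest value of 10 members, squalene pools 2 and 3 of 4 members each, and the control pools of 6 in all (1, 1, 2 and 2). Control pool 2 held the highest value of 14 members. Squalene pool 3 was the squalene pool nearest to the controls for C3, SERPING1, C5 and C1S. Acute phase genes, described below, also had their highest mean levels in control pool 2 and squalene pool 3. Their part in the complement values was not tested.

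**Figure D2:**
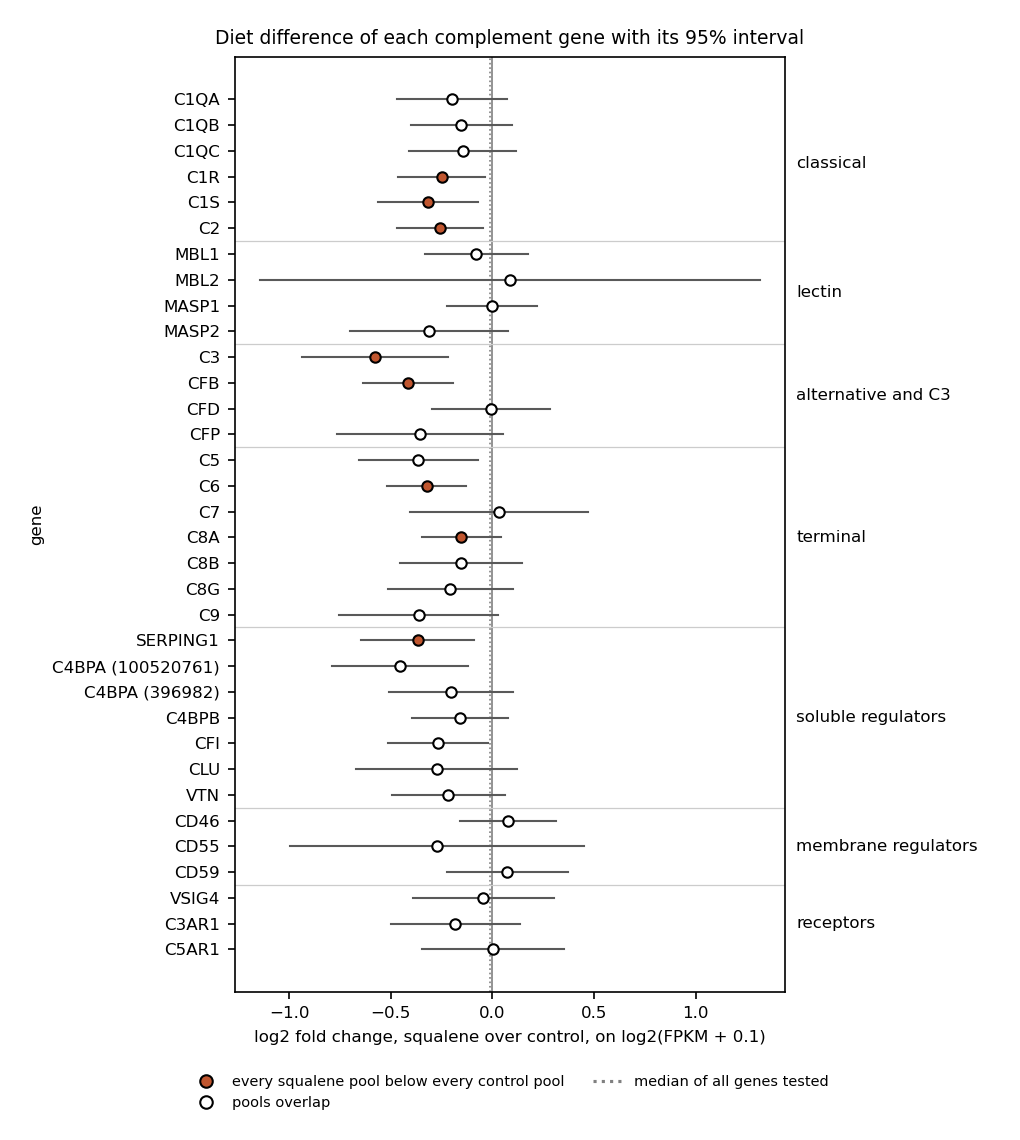
Fitted log2 fold change of each complement gene, squalene over control, with its 95% interval from limma (4 pools per diet). Filled circles mark the 8 genes whose squalene pools all lay below all control pools. C3 has the lowest value, -0.58, and the interval of MBL2 runs from -1.15 to 1.32.

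In the classical pathway, the proteases and C2 separated by diet while C1q did not. C1R, the first protease of the pathway, had 865, 932, 941 and 954 FPKM in squalene pools 1 to 4, against 1064, 1177, 1115 and 1036 FPKM in control pools 1 to 4. Its log2 fold change was -0.25 (95% interval -0.46 to -0.03, unadjusted p = 0.0271, limma). C1S, the protease that C1r activates, had 786, 963, 1002 and 827 FPKM in squalene pools, against 1072, 1120.0, 1142 and 1106 FPKM in control pools. The control pools of C1S lay close together (CV 2.62%) and the squalene pools were more spread (CV 11.6%), with pools 1 and 4 lowest. Its log2 fold change was -0.32 (-0.56 to -0.07, unadjusted p = 0.0162, limma). C2, whose cleaved form is the protease of the classical C3 convertase, had 237, 274, 291 and 255 FPKM in squalene pools, against 306, 328, 308 and 317 FPKM in control pools. Its log2 fold change was -0.26 (-0.47 to -0.05, unadjusted p = 0.0220, limma).

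The 3 chains of C1q, the recognition molecule, overlapped between the diets. C1QB, the most abundant chain, averaged 428 ± 42.8 FPKM in squalene pools and 476 ± 43.4 FPKM in control pools (SD, n = 4 each), and the log2 fold changes of C1QA, C1QB and C1QC were -0.20, -0.15 and -0.15. Each chain was lowest in squalene pools 3 or 4. Squalene pools 1 and 2 lay within the range of the controls for all 3 chains, as did squalene pool 3 for C1QC. All 6 classical members had a fitted value below 0, with a median of -0.22.

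The lectin pathway showed no separated member. MBL2, one of the pig genes for mannose-binding lectin, was the most abundant of its members and the most variable of all 34. It had 336, 106, 141 and 157 FPKM in squalene pools, against 205, 338, 191 and 46.6 FPKM in control pools. Both diets thus held pools with high and with low MBL2, and the CV was 55.7% in squalene pools and 61.0% in control pools. The fold change was 0.09 on the log2 scale with an interval of -1.15 to 1.32, so that differences of more than 2-fold in either direction lay within the error. MBL1, the other mannose-binding lectin gene, varied far less and ranged from 58.0 to 65.0 FPKM in squalene pools and from 52.8 to 71.8 FPKM in control pools. MASP1, a protease of this pathway, averaged 19.9 FPKM on either diet (SD 1.53 for squalene and 1.76 for control, n = 4 each). MASP2, the protease that cuts C4 and C2, ranged from 38.6 to 72.0 FPKM in squalene pools and from 62.3 to 69.2 FPKM in control pools, with a log2 fold change of -0.31 (-0.70 to 0.08).

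C3 had the lowest fitted fold change of all members and CFB the smallest unadjusted p. C3, the central component, had 1099, 1410.2, 1828 and 1385 FPKM in squalene pools, against 2066, 2402, 1847 and 2124 FPKM in control pools. The means were 1431 ± 300.3 FPKM on squalene and 2109.8 ± 229 FPKM on control diet (SD, n = 4 each), which is a mean 32.2% lower, and squalene pool 3 came within a small distance of control pool 3. The log2 fold change of C3 was -0.58 (-0.94 to -0.22, unadjusted p = 0.00489, limma). Its pools separated as deposited and with a common median, but not on TPM, after quantile normalization or on the hepatocyte markers. CFB, factor B, which supplies the protease of the alternative C3 convertase, had 593, 624, 683 and 697 FPKM in squalene pools, against 800.1, 909.8, 856 and 894 FPKM in control pools. A clear gap lay between the diets for CFB, and its log2 fold change of -0.42 (-0.64 to -0.19) carried the smallest unadjusted p of the members, 0.00199 (limma).

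The remaining alternative pathway genes were low and overlapped. CFD, factor D, the protease that cuts factor B, ranged from 20.8 to 27.2 FPKM in squalene pools and from 21.6 to 30.3 FPKM in control pools, with a log2 fold change of -0.01 (-0.30 to 0.28). CFP, properdin, which stabilizes the alternative convertase, ranged from 9.60 to 18.5 FPKM in squalene pools and from 14.0 to 18.9 FPKM in control pools. Its log2 fold change was -0.36 (-0.76 to 0.05), and squalene pool 1 alone kept the pools from separating.

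**Figure D3:**
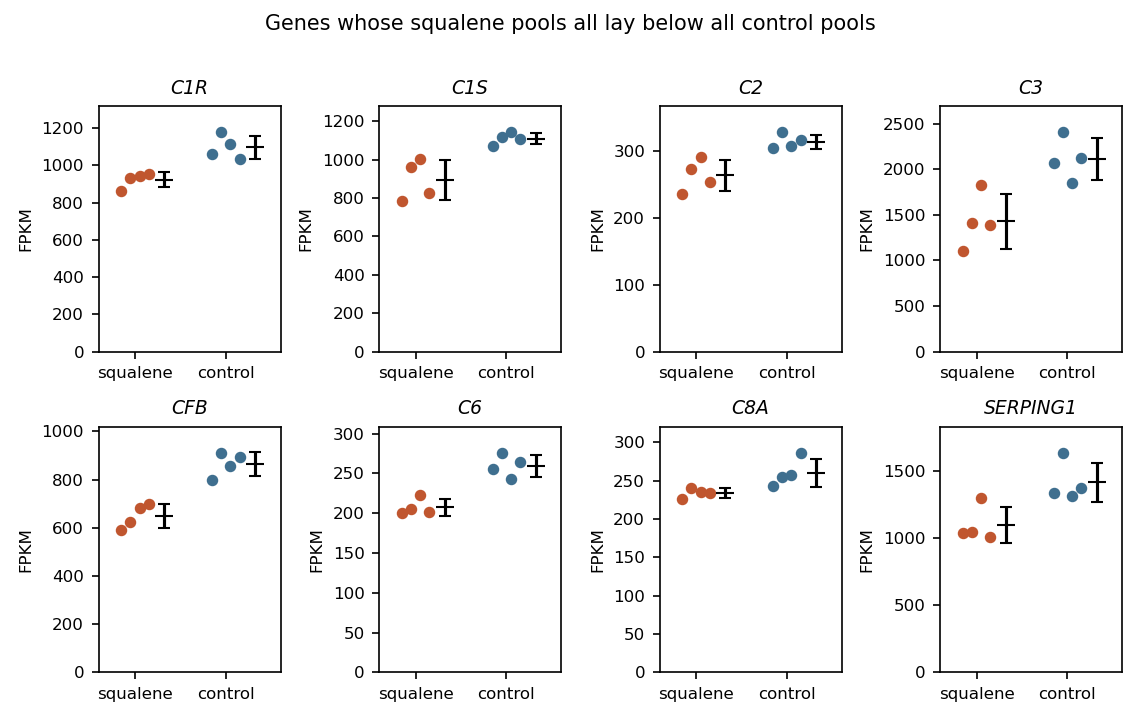
FPKM of the 8 complement genes whose squalene pools (left, orange) all lay below all control pools (right, blue). Each point is a pool of 3 pigs in pool order, the bar is the mean with its SD (n = 4), and each axis starts at 0. CFB shows a gap between 697 and 800.1 FPKM, and for C8A the gap is only between 241 and 243 FPKM.

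Among the terminal components, C6 and C8A separated by diet, and C7 was as high on squalene as on control diet. C6, which binds C5b to start the pore, had 201, 205, 223 and 201 FPKM in squalene pools, against 255, 275, 243 and 264 FPKM in control pools. Both diets were tight for C6 (CV 5.13% and 5.29%), and its log2 fold change was -0.32 (-0.52 to -0.13, unadjusted p = 0.00414, limma). C8A, the alpha chain of C8, had 226, 241, 235 and 234 FPKM in squalene pools, against 243, 255, 258 and 286 FPKM in control pools. These values touched without overlapping, and the log2 fold change of C8A was -0.15 (-0.35 to 0.04), with an unadjusted p of 0.111 (limma).

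C5, whose cleavage opens the terminal pathway, had 129, 138, 186 and 124 FPKM in squalene pools, against 169, 183, 185 and 198 FPKM in control pools. Squalene pool 3 stood within the controls and the other squalene pools below them, and the log2 fold change was -0.36 (-0.66 to -0.07, unadjusted p = 0.0201, limma). C9, which polymerizes into the pore and was the most abundant terminal member, had 289, 231, 314 and 299 FPKM in squalene pools, against 281, 489.6, 315 and 396 FPKM in control pools. Control pools 2 and 4 were high in C9 and the others overlapped, and the fold change was -0.36 (-0.75 to 0.03). C8B and C8G, the other chains of C8, had fold changes of -0.15 and -0.21, with squalene pool 2 among or above the controls for both. C7 averaged 53.9 ± 12.8 FPKM in squalene pools and 52.4 ± 11.5 FPKM in control pools (SD, n = 4 each), with a log2 fold change of 0.03.

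All 7 rows of soluble regulators had a fitted fold change below 0, with a median of -0.27. SERPING1, the inhibitor of C1r, C1s and the MASP proteases, had 1040.3, 1050.1, 1299 and 1006 FPKM in squalene pools, against 1339, 1635, 1316 and 1375 FPKM in control pools. The only squalene value near the controls was that of pool 3, and the log2 fold change was -0.37 (-0.64 to -0.09, unadjusted p = 0.0142, limma). VTN, the most abundant member, had 2289.6, 2352, 2533 and 2295 FPKM in squalene pools, against 2457, 2469, 3186 and 2954 FPKM in control pools. Squalene pool 3 exceeded control pools 1 and 2, and its fold change was -0.22 (-0.50 to 0.06).

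C4BPA encodes the alpha chain of C4b-binding protein, a cofactor for the breakdown of C4b. The C4BPA row with gene identifier 100520761 had 134, 118, 189 and 121 FPKM in squalene pools, against 169, 204, 189 and 195 FPKM in control pools. Squalene pool 3 again lay within the controls, and the log2 fold change was -0.45 (-0.79 to -0.12, unadjusted p = 0.0124, limma). The other C4BPA row (identifier 396982) was more abundant, with a fold change of -0.20 (-0.51 to 0.10), and C4BPB, the beta chain, had -0.16 (-0.40 to 0.08). CFI, factor I, the protease that cuts C3b and C4b, averaged 467 ± 49.4 FPKM in squalene pools and 561 ± 43.1 FPKM in control pools (SD, n = 4 each), with a log2 fold change of -0.27 (-0.52 to -0.02, unadjusted p = 0.0371, limma). CLU, clusterin, which keeps the terminal complex out of membranes, ranged from 1011 to 1797 FPKM in squalene pools and from 1414 to 1864 FPKM in control pools.

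The membrane regulators, which protect the body's own cells, showed no separation. CD59, which blocks C9 polymerization, was their most abundant gene, with 21.0, 15.3, 14.1 and 14.1 FPKM in squalene pools, against 14.9, 14.7, 16.3 and 14.6 FPKM in control pools. Apart from squalene pool 1, which was also the pool with the highest interferon-stimulated genes, these values overlapped, and whether CD59 followed the interferon-stimulated genes in that pool was not tested. Control pool 1, where those genes were raised to a lesser extent, had 14.9 FPKM of CD59. Without squalene pool 1 the log2 fold change of CD59 was -0.06, against 0.07 with all pools. CD46, a cofactor for factor I, averaged 15.1 ± 1.91 FPKM in squalene pools and 14.2 ± 0.722 FPKM in control pools (SD, n = 4 each). CD55 was near 1 FPKM on either diet, with a log2 fold change of -0.27 (SE 0.32), and a difference of this size was not detectable at this level.

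Receptor genes overlapped as well. VSIG4, the complement receptor of Kupffer cells, was the most abundant of them, with 61.1, 41.5, 50.6 and 37.2 FPKM in squalene pools, against 43.0, 48.0, 56.4 and 46.5 FPKM in control pools. The highest and the lowest value were both squalene pools. C3AR1, the receptor of the C3a fragment, ranged from 11.9 to 19.0 FPKM in squalene pools and from 17.6 to 18.9 FPKM in control pools. C5AR1, the receptor of C5a, had a fitted log2 fold change of 0.00 (-0.35 to 0.35).

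Added up, the 34 rows held a smaller part of the transcriptome on squalene. Their share of the summed FPKM was 2.24%, 2.22%, 2.56% and 2.27% in squalene pools 1 to 4, against 2.67%, 3.04%, 2.81% and 2.80% in control pools 1 to 4. The shares averaged 2.32% ± 0.158 in squalene pools and 2.83% ± 0.154 in control pools (SD, n = 4 each) and did not overlap. This sum is dominated by its most abundant genes, and it was described without a test because it is a score over chosen genes. C3 accounted for only a part of the difference, since the share without C3 was 2.06% ± 0.110 in squalene pools and 2.46% ± 0.131 in control pools. Soluble regulators made up the largest portion in both diets, with 1.06% ± 0.0829 in squalene pools and 1.27% ± 0.0817 in control pools, and alternative pathway genes with C3 made up 0.382% ± 0.0673 in squalene pools and 0.541% ± 0.0518 in control pools. Lectin pathway genes held 0.0578% ± 0.0169 in squalene pools and 0.0624% ± 0.0222 in control pools.

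**Figure D4:**
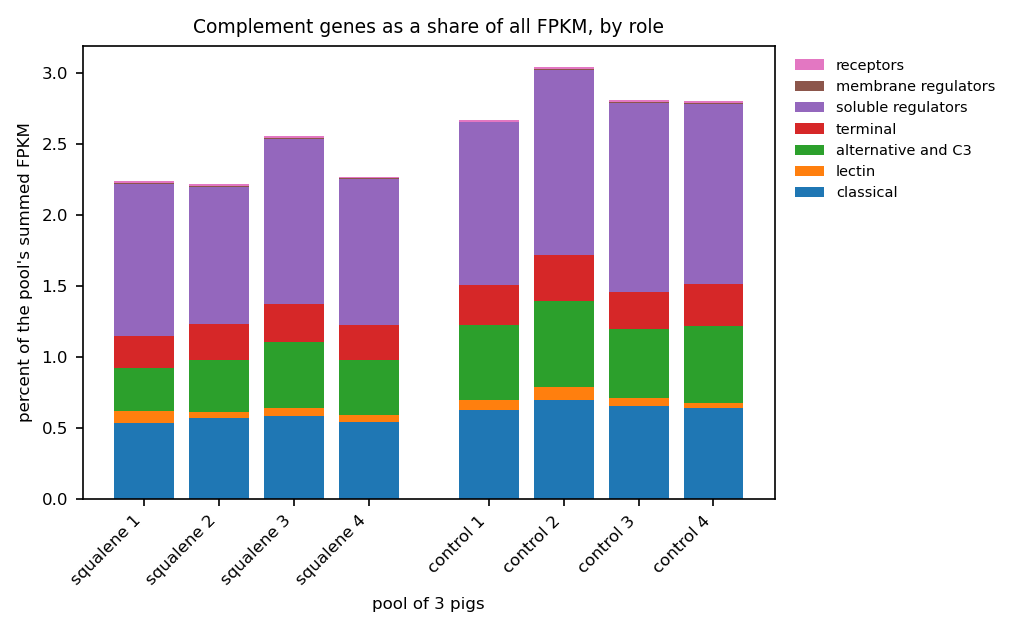
Percent of each pool's summed FPKM held by the complement genes, stacked by role, with the 4 squalene pools on the left and the 4 control pools on the right. The tops of the bars lie between 2.22% and 2.56% for squalene and between 2.67% and 3.04% for control.

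Pairs of members, among them chains of one protein, were compared as ratios, because a ratio does not depend on how a pool is scaled. None of 15 ratios separated the diets with all pools, and 2 did without control pool 1, where fewer pools separate more easily by chance. The smallest p was that of CFB over C2, which supply the proteases of the alternative and the classical convertase and averaged 2.47 ± 0.204 in squalene pools and 2.75 ± 0.0887 in control pools (SD, n = 4 each; p = 0.0571, two-sided exact permutation test, adjusted p = 0.643 over the 15 ratios). The smallest p the design allows is 0.0286, and a single ratio at that p could not have passed the adjusted threshold over 15 ratios. CFI over C3 averaged 0.332 ± 0.0370 in squalene pools and 0.268 ± 0.0332 in control pools (p = 0.0857, exact permutation test, adjusted p = 0.643). Among chains of one protein, C1QC over C1QB was 0.814 ± 0.0271 in squalene pools and 0.811 ± 0.0353 in control pools, with a CV of 3.60% over the 8 pools. The CV was 5.22% for C1QA over C1QB, 10.9% for C4BPA over C4BPB, 11.8% for C8A over C8B and 13.8% for C8G over C8B. It was 7.79% for the proteases C1R over C1S and 89.2% for MBL1 over MBL2.

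The relation of C1q transcripts to macrophage markers across pools did not pass the threshold after adjustment over 3 relations. It was the planned relation, and those of ALB, the gene of serum albumin, with C3 and with CFB were added after the data were seen. Before adjustment the p of Spearman's rho was under the threshold and that of Pearson's r was not. The outcome for rho therefore depended on the added relations. The mean log2 level of C1QA, C1QB and C1QC and that of 12 macrophage marker genes had a Pearson's r of 0.68 (permutation p = 0.0652, adjusted p = 0.0978 over 3 relations) and a Spearman's rho of 0.79 (permutation p = 0.0279, adjusted p = 0.0838) over 8 pools. Leaving out squalene pools 1 and 4, which lay farthest from the median of the markers, left an r of 0.54 over 6 pools, with a permutation p of 0.271. Leaving out those pools also narrows the range of the markers, so the lower r does not show how far the value rests on them. A diet holds 4 pools, too few for a value within it.

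**Figure D5:**
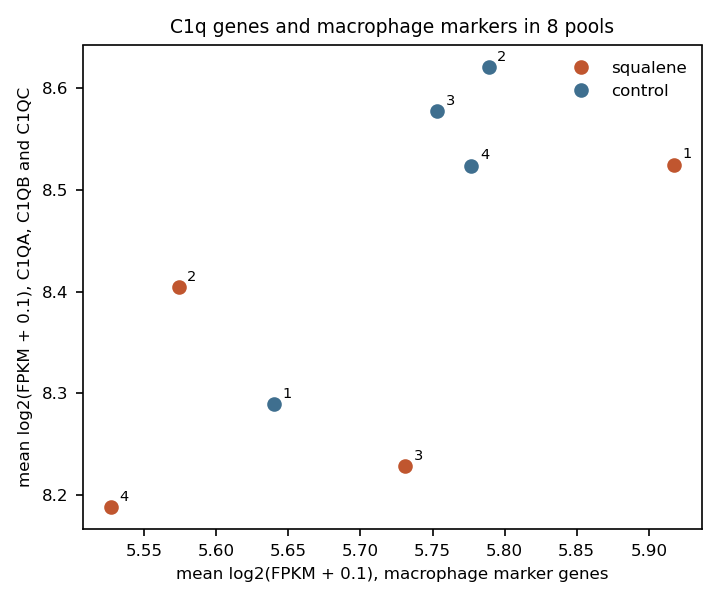
Mean log2(FPKM + 0.1) of the macrophage marker genes (horizontal) and of C1QA, C1QB and C1QC (vertical) in the 8 pools, with the pool number beside each point. Squalene pool 1 has the highest marker level, 5.92, and squalene pool 4 has both the lowest marker level, 5.53, and the lowest C1q level, 8.19.

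Other genes on a list of complement and related genes, outside these 34 rows, did not lean to one side. Of 29 such genes tested, 15 had a fitted fold change below 0 and 14 above, with a median of -0.01, and 1 had all squalene pools below all control pools. That gene was CPB2, which encodes a carboxypeptidase that inactivates C3a and C5a, with 480.4, 464, 488 and 387 FPKM in squalene pools, against 506, 550.1, 651 and 603 FPKM in control pools. Its log2 fold change was -0.34 (-0.61 to -0.08, unadjusted p = 0.0157, limma). C4A, one of the genes for C4, the target of C1s, had 272, 167, 303 and 199 FPKM in squalene pools, against 296, 387, 314 and 325 FPKM in control pools. Squalene pool 3 lay above control pool 1, and the fold change of C4A was -0.53 (-0.94 to -0.12, unadjusted p = 0.0169, limma). CPN2, a subunit of carboxypeptidase N, which also acts on C3a and C5a, had -0.31 (-0.62 to 0.01, unadjusted p = 0.0578, limma). Some genes of this list were barely expressed, such as PTX3, at a mean of 0.22 FPKM in squalene pools and 0.12 FPKM in control pools. APCS and CRP are also counted among the acute phase genes.

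Acute phase genes, which hepatocytes produce in inflammation together with several complement components, were set beside the complement genes. Of 18 rows, 15 had a fitted value below 0, with a median of -0.26. HPX, the heme carrier hemopexin, was the only one whose pools separated, with 1583, 1331, 1625 and 1135 FPKM in squalene pools, against 1868, 2123, 1849 and 1800.3 FPKM in control pools. At an unadjusted p under 0.05 in limma there were 3, all lower on squalene, namely HPX, ORM1 and CP, and 0 were called after adjustment. The mean log2 level of the 18 rows was 9.24, 8.98, 9.80 and 9.26 in squalene pools 1 to 4. In control pools 1 to 4 it was 9.38, 9.81, 9.26 and 9.69. Whether acute phase and complement genes differ for one reason was not tested.

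The deposited base calls showed no site in these genes that set the diets apart. The table lists 890 sites of single nucleotide polymorphism (SNP) within 33 of the 34 gene rows, of which 288 lay in exons and 153 in coding exons. At 134 of them every pool carried a non-reference base, and at 0 did all pools of one diet differ from the reference while all pools of the other matched it. Squalene pools had non-reference calls at 331, 343, 285 and 330 of these sites, against 376, 380, 390 and 345 sites in control pools. Over the whole table of 269579 sites the counts also ran lower in squalene pools, at 88604 to 96068, against 92009 to 103194 in control pools, with overlap between the diets. Sites with any call numbered 563 to 619 in squalene pools and 615 to 678 in control pools, and of the control pools only pool 4 lay within the squalene range. Over the whole table they numbered 170640 to 180820 in squalene pools and 173740 to 186569 in control pools. In C6 the counts did not overlap, with 13, 15, 14 and 15 non-reference sites in squalene pools, against 22, 23, 27 and 26 in control pools, a gene singled out after the values were seen. C6 had a call at 33 to 39 of its 64 sites in squalene pools and at 46 to 53 in control pools, and 11 of the 64 lay in exons. The part of read coverage in these counts was not tested. The 4 splicing tables list 16, 14, 10 and 21 events, and 0 of them fell in a complement member.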

How the data were processed

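RNA of 24 pig livers was sequenced on the DNBSEQ platform in 8 pools of 3 pigs. HISAT2 was used by the authors to align the filtered reads to Sscrofa11.1, and the sources used here do not state how alignments became expression values. All levels are FPKM as deposited by the authors for each gene and pool. The deposited comparison table holds estimated counts that the authors summed within each diet, which served only to estimate depth, as well as log2 ratios, p-values and q-values, which were not used. The SNP table deposited by the authors gives a base letter per site and pool, from a caller that the sources used here do not name. Depth was fitted by non-negative least squares over 9257 genes for squalene and 9558 for control. Counts per pool were not used, so no counting interval is given.

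The diets were compared by limma (version 3.58.1, under R 4.3.3), with lmFit and a trended eBayes applied to log2(FPKM + 0.1) of the 14780 genes whose mean reached 0.1 FPKM. Adjustment followed Benjamini and Hochberg, and 0.05 was the threshold. Fold changes are squalene over control on this scale and understate the change of low genes. Single values were compared with two-sided exact permutation tests over 70 assignments of the pools. Other steps used scipy 1.17.1 and matplotlib 3.10.9 in Python 3.11.15, with numpy 2.4.6 and pandas 2.3.3. Pools are the replicates. The limma p-values set the difference between diets against the spread between pools, which eBayes moderates across genes. Gene identifiers matched RefSeq for 20331 rows, and windows were read from the genome of that build.

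The members and lists were chosen with earlier results of these data known. Values in every pool are given for members whose pools did not overlap, the 8 with the smallest p and the most abundant of each role. Alternatives were the pseudocount, the filter, the scaling, the trend, a block for the pool number and leaving out each pool. Scaling to the hepatocyte markers was added after seeing the data.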

Additional observations from a re-analysis of the deposited data

Results flagged for a closer look

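In 100 groups of 4 pools (the members' levels, their ratios and their summed share, by diet), 7 had a pool far from the other 3, by a gap that took up most of the group's range. Chance flags about 1 in 20 such groups, and the groups share pools. Squalene pool 3 was far above the other squalene pools in 4 of them. SERPING1, the C1 inhibitor, was at 1299 FPKM there, against 1006 to 1050 FPKM in the others, C5AR1 at 21.3 FPKM against 13.7 to 14.9 FPKM, and MASP1 at 22.2 FPKM against 19.0 to 19.4 FPKM. The summed share of the complement genes was 2.56% in that pool and 2.22% to 2.27% in the other squalene pools.

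Control pool 3 stood apart for CD59, at 16.3 FPKM with the other control pools at 14.6 to 14.9 FPKM, and for the ratio of C1QC to C1QB, at 0.863 with the others at 0.790 to 0.797. Control pool 4 had a ratio of MBL1 to MBL2 of 1.54, with the others at 0.198 to 0.35, and it was the pool with the lowest MBL2 level.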

How the results depend on the processing

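In all 18 alternatives 0 complement members were called, and 26 of 34 members kept the direction of their fold change. The other 8, none with a fitted value farther than 0.09 from 0, turned in 26 of 612 fits. The log2 fold change of MASP1 was 0.0068 on TPM, 0.0055 with a common median and 0.0023 on hepatocyte markers, that of CFD was 0.00077 on TPM, and that of C5AR1 was -0.013 after quantile normalization. With each pool left out in turn, it ranged from -0.50 to 0.45 for MBL2, -0.054 to 0.055 for MASP1, -0.070 to 0.092 for CFD, -0.066 to 0.19 for C7, -0.0076 to 0.12 for CD46, -0.059 to 0.13 for CD59, -0.17 to 0.065 for VSIG4 and -0.14 to 0.073 for C5AR1. The log2 difference of the ratio ranged from -0.011 to 0.037 for C1QC/C1QB, -0.084 to 0.092 for C8A/C8B, -0.16 to 0.065 for C8G/C8B, -0.52 to 0.46 for MBL1/MBL2, -0.15 to 0.075 for C9/C6 and -0.20 to 0.085 for CLU/VTN, and 0 to 2 ratios separated the diets. Members whose squalene pools all lay below the control pools numbered 3 with a common median (199 of all genes), 5 after quantile normalization (249), 1 on hepatocyte markers (104) and 8 to 13 with a pool left out (332 to 615), against 8 (228). Members lower at an unadjusted p under 0.05 numbered 5 on hepatocyte markers (185 of all genes), against 10 (337). Over all genes, 1 passed the adjusted threshold without the trend, and 0 to 1 with a pool left out. Over all genes tested, deviations of same-numbered pools correlated only weakly, at -0.07 to 0.09. For squalene pool 1 the value was 0.09, against -0.07 to -0.01 with the other control pools. For squalene pool 4 it was -0.07, against -0.02 to 0.10. A pairing limited to some genes was not tested. With the replicate block, 9 members had an unadjusted p under 0.05 and 0 passed after adjustment, compared with 10 and 0 without it. The causes of these shifts were not tested. A fitted change smaller than the distance to the ends of its interval has an unadjusted p above 0.05 (limma, 4 pools a diet). Adjustment over all genes asks for a larger change. The spread between single pigs is not seen.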

Other observations

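The relation of C3 to ALB, the gene of serum albumin, across the 8 pools was looked at after the data were seen and did not pass the threshold. ALB took 5.15% to 9.04% of the summed FPKM in squalene pools and 4.36% to 8.62% in control pools. Pearson's r between ALB and C3 was -0.71 (permutation p = 0.0523, adjusted p = 0.0978 over 3 relations) and Spearman's rho was -0.67 (permutation p = 0.0831, adjusted p = 0.125). Without control pools 1 and 2, which lay farthest from the median of ALB, r was -0.47 over 6 pools (permutation p = 0.396). For CFB the r with ALB was -0.43 (permutation p = 0.273) and rho was -0.38 (permutation p = 0.360). All FPKM of a pool share one scaling, and the part of that scaling in these values was not tested.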
